A study of Mus musculus with 15 samples.

Results

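The genes described here are 42 genes of ribosome biogenesis, the nucleolar work of transcribing, processing and assembling the precursors of ribosomes. They were taken by symbol from a list of nucleolar processing factors, RNA polymerase I subunits and assembly factors. No measured value enters that rule, but the list was chosen with earlier results of these data known. All 42 were present among the 27019 gene rows, all 42 passed the filter on low counts that left 16057 genes, and they were sorted here into 9 roles. RNA was measured in CD8+ T cells from the spleens of OT-I mice, whose transgenic T cell receptor recognises the ovalbumin peptide OVA257-264. The 4 groups held 2 libraries each and were Susd2-/- day 3, WT day 3, Susd2-/- day 0 and WT day 0. Susd2, the gene knocked out, codes for a sushi-domain protein of the cell membrane. Mice of all groups were on the C57BL/6 strain, carried the OT-I receptor and were 8 to 10 weeks old. Day 0 cells came from untreated splenocytes and day 3 cells from whole splenocytes cultured with the peptide for 3 days, and both were enriched with magnetic beads that remove other cells.

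In the nucleolus, RNA polymerase I transcribes the long precursor of the ribosomal RNAs. Small nucleolar ribonucleoprotein particles (snoRNPs) modify that precursor, the small-subunit processome folds and cleaves its first part, and further factors build the large subunit before both subunits leave the nucleus. T cells that meet antigen grow before they divide, and growth needs new ribosomes. The transcription factor MYC, which T cells make after receptor signalling, is known to bind E-box sequences (CACGTG) near many genes of this pathway.

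RefSeq promoter windows (GRCm38.p6, 250 bases before to 50 bases after a gene's start, 300 in all) were matched for 37 of the 42 genes, and those without a match were Bop1, Npm1, Rrp12, Fbl and Rrs1. Stretches of 80 bases before the RefSeq start are printed 5′ to 3′ in the direction of the gene for 5 genes, with motifs in capitals. Nolc1 is shown because it had the largest rise in WT cells, and Gar1 because its libraries diverged. Nop2 is shown because its stretch holds both motifs, Utp4 because its stretch holds 2 copies of the ETS core, and Rrn3 for its E-box. The full windows of Rrn3, Utp4 and Tsr1 also held both motifs.
Nolc1: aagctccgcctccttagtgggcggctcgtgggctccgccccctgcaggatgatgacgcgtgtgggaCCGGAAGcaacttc
Gar1: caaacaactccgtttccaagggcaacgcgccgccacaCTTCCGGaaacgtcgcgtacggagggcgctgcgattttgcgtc
Nop2: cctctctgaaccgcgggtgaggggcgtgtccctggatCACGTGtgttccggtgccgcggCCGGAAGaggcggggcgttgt
Utp4: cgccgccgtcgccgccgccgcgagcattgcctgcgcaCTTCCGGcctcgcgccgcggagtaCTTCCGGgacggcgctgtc
Rrn3: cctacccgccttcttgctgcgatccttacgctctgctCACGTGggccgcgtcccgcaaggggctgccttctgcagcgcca
The stretches lie at Nolc1 chr19:46075767-46075846 (+ strand), Gar1 chr3:129831397-129831476 (- strand), Nop2 chr6:125131786-125131865 (+ strand), Utp4 chr8:106893560-106893639 (+ strand) and Rrn3 chr16:13780614-13780693 (+ strand). The capitals mark the E-box CACGTG, whose letters read the same on both strands, and the ETS core CCGGAAG, which reads CTTCCGG on the other strand. RefSeq and GENCODE starts can differ, and the end of the Utp4 stretch lies past the GENCODE start of the gene.

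The E-box stood in the windows of 8 of 37 genes (21.6%), against 11.5% of 10581 tested genes with a window and 8.09% of all 27025 genes with a RefSeq window. They were Rrn3, Mybbp1a, Utp4, Utp20, Wdr43, Tsr1, Pes1 and Nop2. The ETS core stood in 14 of 37 (37.8%), against 19.9% of tested genes and 9.93% of all genes. The CCAAT box, also searched on both strands, stood in 11 of 37 (29.7%), against 42.9% of tested genes and 41.1% of all genes. In Nop2 the E-box begins 60 bases and the ETS core 38 bases before the start. None of the 3 motifs contains another. The median log2 fold change of the 8 genes with an E-box was 1.73 in Susd2-/- cells and 1.65 in WT cells, and that of the 29 without was 1.79 and 1.86, day 3 over day 0. A match describes letters in a window and not a bound site. On GRCm38 (GENCODE M21) Nolc1 spans chr19:46075863-46085530 (+ strand), Nhp2 chr11:51619735-51623714 (+), Npm1 chr11:33152287-33163206 (-), Gar1 chr3:129824912-129831396 (-) and Fbl chr7:28169710-28179269 (+), all protein-coding genes.

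Libraries held 26829807 to 53846911 counts, the most in Susd2-/- day 3 library 2. Susd2 itself had 0 and 2 counts in Susd2-/- cells at day 3, against 16 and 10 in WT cells, and 1 and 3 counts in Susd2-/- cells at day 0, against 90 and 80 in WT cells. A chi-square comparison of counts, divided by its degrees of freedom, gave 3.01 to 3.17 between lanes of 1 library. Between the libraries of a group it gave 16.0 for Susd2-/- day 3, 12.5 for WT day 3, 6.30 for Susd2-/- day 0 and 3.37 for WT day 0, so that the last pair stood close to repeat lanes. The spread between libraries was 10% at day 3 and 5.35% at day 0 (biological coefficient of variation). The T cell genes Cd8a, Cd8b1, Cd3d, Cd3e, Cd3g and Trac were present in every library. At day 0, Cd8b1, Cd3d and Cd3g were lower in Susd2-/- cells than in WT cells. In bulk samples fewer cells of a type and less RNA per cell cannot be told apart. Levels are given as CPM, counts scaled to a common library size by TMM (a normalization that assumes most genes do not change), and are not corrected for length. A change or call means an adjusted p below 0.05.

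All 42 genes rose after 3 days with the peptide in both genotypes. Of all 16057 genes, 36.7% rose and 39.7% fell in Susd2-/- cells, and 36.2% rose and 39% fell in WT cells. Most genes were thus called between the days, whereas TMM assumes that most do not change. The size of the day changes depends on this scaling. With total counts alone the rise of Ubtf in Susd2-/- cells was 0.47 log2 units, against 0.67 with TMM. The 42 genes had a median log2 fold change of 1.73 in Susd2-/- cells and 1.88 in WT cells, against -0.12 and -0.14 for all genes tested. Together they had 23900 and 23700 CPM in Susd2-/- cells at day 3, against 5840 and 5660 CPM at day 0, and 25100 and 22100 CPM in WT cells at day 3, against 5740 and 5740 CPM at day 0. Of the 42, 14 rose at least 4-fold in Susd2-/- cells and 15 in WT cells, and the share of all genes past that fold was not counted. The smallest rises were in the RNA polymerase I group. Between 40 and 42 of the rises in Susd2-/- cells, and all 42 in WT cells, were called under every alternative run, and the ones lost were Fbl and Gar1, described below.

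**Figure D1:**
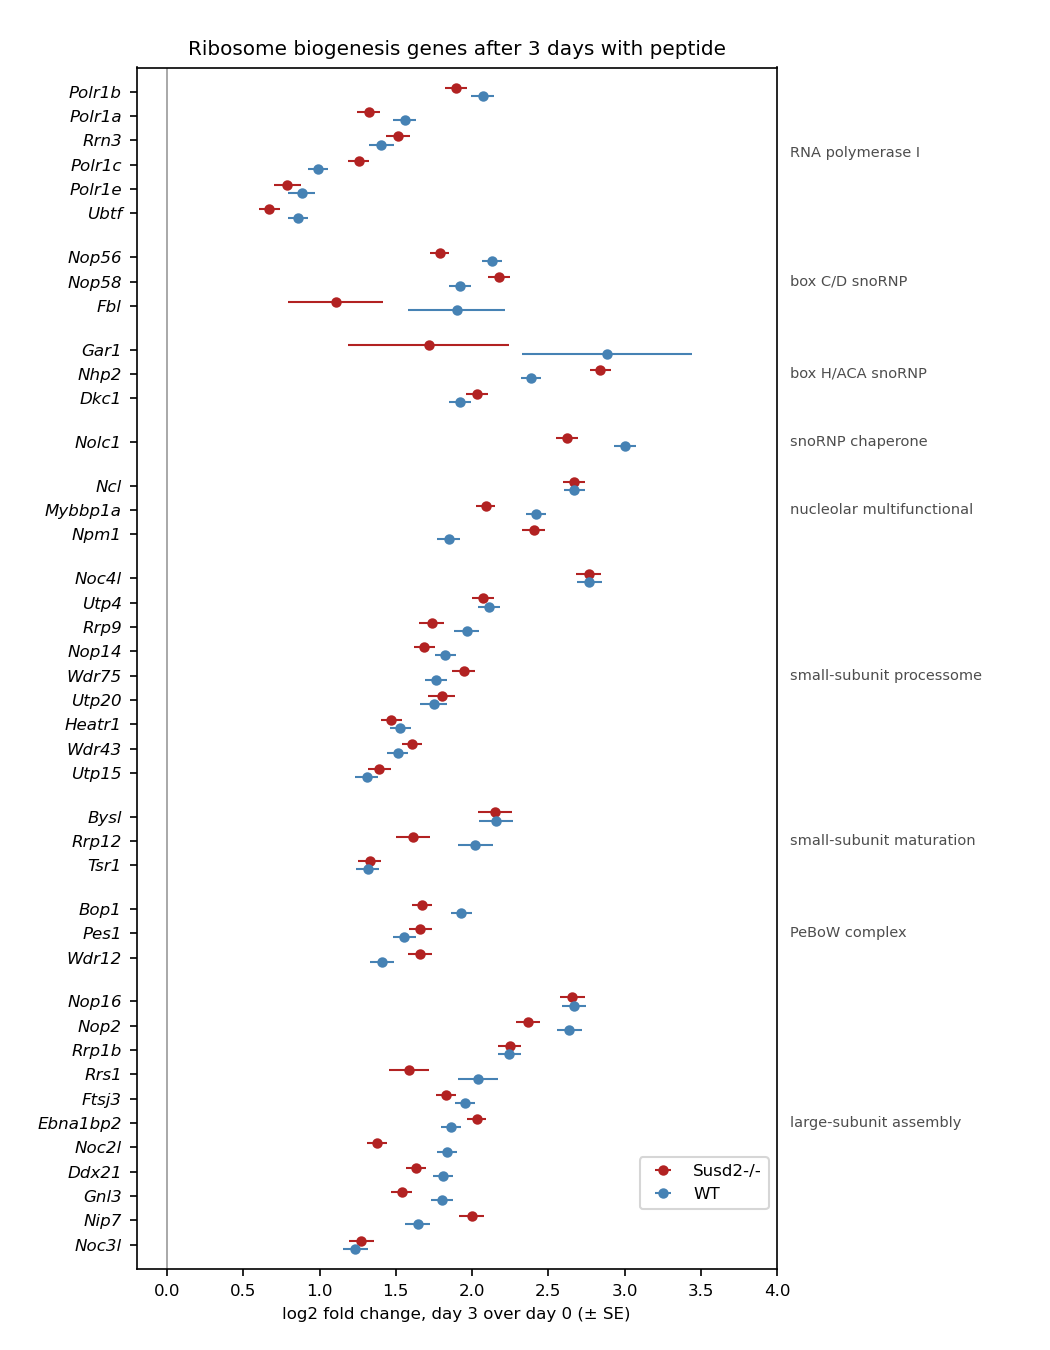
Log2 fold change of each of the 42 genes, day 3 over day 0, with its standard error, in Susd2-/- cells (red) and WT cells (blue), grouped by role. All points lie above 0, from 0.67 (Ubtf, Susd2-/-) to 3.00 (Nolc1, WT), and the bars of Fbl and Gar1 are the widest.

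The RNA polymerase I group held 6 genes with a median log2 fold change of 1.29 in Susd2-/- cells and 1.20 in WT cells. Ubtf, which binds ribosomal DNA and bends it for transcription, had 445 and 391 CPM in Susd2-/- cells at day 3, against 269 and 255 CPM at day 0, and 457 and 438 CPM in WT cells at day 3, against 248 and 246 CPM at day 0. Both day 3 libraries were above both day 0 libraries in each genotype, and its log2 fold changes of 0.67 ± 0.067 and 0.86 ± 0.067 (SE) were the smallest of the 42 (edgeR adjusted p = 2.4e-08 and 7e-10). Polr1e, another subunit of the polymerase, rose by 0.79 in Susd2-/- and 0.88 in WT cells. Polr1a, its largest subunit, had 256 and 237 CPM in Susd2-/- cells at day 3, against 96.1 and 101 CPM at day 0, and 274 and 236 CPM in WT cells at day 3, against 82.7 and 90.3 CPM at day 0. Polr1a rose by 1.32 ± 0.077 in Susd2-/- and 1.56 ± 0.077 in WT cells. Rrn3, which couples the polymerase to its promoter, rose by 1.52 and 1.41.

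In the snoRNP groups, the 3 box C/D genes had medians of 1.79 in Susd2-/- and 1.92 in WT cells, and the 3 box H/ACA genes 2.03 and 2.39. Nhp2, a core protein of the box H/ACA particle that guides pseudouridylation, had 383 and 406 CPM in Susd2-/- cells at day 3, against 57 and 53 CPM at day 0, and 407 and 392 CPM in WT cells at day 3, against 76.6 and 75.8 CPM at day 0. Its log2 fold change was 2.84 ± 0.067 in Susd2-/- and 2.39 ± 0.066 in WT cells (edgeR adjusted p = 1.21e-17 and 9.11e-17). Dkc1, the pseudouridine synthase of that particle, rose by 2.03 in Susd2-/- and 1.92 in WT cells. Nolc1, a chaperone of snoRNPs, had 797 and 768 CPM in Susd2-/- cells at day 3, against 132 and 122 CPM at day 0, and 844 and 755 CPM in WT cells at day 3, against 103 and 96.2 CPM at day 0. Nolc1 had the largest rise of the 42 in WT cells, 3.00 ± 0.073, and rose by 2.62 ± 0.071 in Susd2-/- cells. Its day 3 libraries lay far above the day 0 ones in both.

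Among the abundant nucleolar proteins, Ncl (nucleolin, which binds the ribosomal RNA precursor) had 5700 and 5520 CPM in Susd2-/- cells at day 3, against 886 and 876 CPM at day 0, and 6020 and 5110 CPM in WT cells at day 3, against 874 and 872 CPM at day 0. It rose by 2.67 ± 0.072 in each genotype. Npm1 (nucleophosmin, a histone chaperone of the nucleolus) rose by 2.41 ± 0.075 in Susd2-/- and 1.85 ± 0.074 in WT cells. Mybbp1a, a nucleolar protein that binds MYB, rose by 2.09 in Susd2-/- and 2.42 in WT cells.

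The 9 genes of the small-subunit processome had medians of 1.73 in Susd2-/- and 1.76 in WT cells. Noc4l, whose yeast counterpart binds Nop14 in small-subunit assembly, had 193 and 202 CPM in Susd2-/- cells at day 3, against 31.7 and 26.4 CPM at day 0, and 195 and 190 CPM in WT cells at day 3, against 28.7 and 27.8 CPM at day 0. The groups did not overlap, and its rise of 2.77 in each genotype was the largest of the 9. Heatr1, a scaffold of the processome, rose by 1.47 ± 0.069 and 1.53 ± 0.07, and Utp15 by 1.39 and 1.31, the smallest of the group. In small-subunit maturation, Bysl rose by 2.15 and 2.16 and Tsr1 by 1.33 and 1.31 in Susd2-/- and WT cells. Exons of Tsr1 and Bysl are overlapped on the other strand by Srr (32.3%) and Ccnd3 (9.37%), and whether the counting used strand is not given in the sources used here. Srr had 3 to 6.39 CPM in every library, whereas Ccnd3 had 168 to 262 CPM.

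For the large subunit, the PeBoW complex (Pes1, Bop1 and Wdr12), which processes the large-subunit RNA, had median rises of 1.66 in Susd2-/- and 1.56 in WT cells. Pes1 had 278 and 262 CPM in Susd2-/- cells at day 3, against 89.9 and 80.8 CPM at day 0, and 287 and 274 CPM in WT cells at day 3, against 90 and 101 CPM at day 0. The 11 other assembly genes had medians of 1.83 and 1.86. Nop16 rose by 2.66 ± 0.08 in Susd2-/- and 2.67 ± 0.08 in WT cells. Nop2, an RNA methyltransferase of the large subunit, had 374 and 326 CPM in Susd2-/- cells at day 3, against 71.6 and 63.8 CPM at day 0, and 396 and 371 CPM in WT cells at day 3, against 63.3 and 59.7 CPM at day 0. It rose by 2.37 and 2.64. Noc3l had the smallest rise of these 11, 1.27 and 1.24.

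Another 98 genes of the same pathway, outside the 42, were measured for comparison. In Susd2-/- cells 93 of 98 rose, 3 fell and 2 did not pass, and in WT cells 92 rose, 3 fell and 3 did not pass, with medians of 1.21 and 1.26. Nop53, a large-subunit factor, fell by 1.01 in Susd2-/- and 0.82 in WT cells (log2), and Taf1c, a subunit of the polymerase I selectivity factor, fell by 0.55 and 0.49. Mdn1, a large ATPase that releases assembly factors, fell by 0.70 in Susd2-/- cells (adjusted p = 0.00201) and had -0.07 in WT cells (adjusted p = 0.624), and the interaction was not called (-0.62, adjusted p = 0.0766). Taf1b, another subunit of that factor, rose by 0.26 in Susd2-/- cells and fell by 0.22 in WT cells, and the interaction was called (0.48, adjusted p = 0.0202). Summed macrophage markers had 8.32 and 4.98 CPM in Susd2-/- cells at day 3, against 158 and 145 CPM at day 0, and 6.82 and 7.68 CPM in WT cells at day 3, against 68.7 and 69.2 CPM at day 0. CD8 T cell markers summed to 1800 and 1860 CPM in Susd2-/- cells at day 3, against 3530 and 3340 CPM at day 0, and to 1860 and 1920 CPM in WT cells at day 3, against 3910 and 3900 CPM at day 0. The part of these markers in the day comparisons was not tested.

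At day 0, before stimulation, 13 of the 42 genes differed between Susd2-/- and WT cells (31.0%), 8 higher and 5 lower. Of all genes tested 23.6% were called, 11.5% higher and 12.1% lower, so the share called among the 42 (19.0% higher and 11.9% lower) was not far from the background. The median log2 difference of the 42 was 0.04, against 0.01 for all genes. The called differences were small, from 0.20 to 0.47 in size on the log2 scale. The 9 processome genes included no call. Their differences ran from -0.07 to 0.11.

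**Figure D2:**
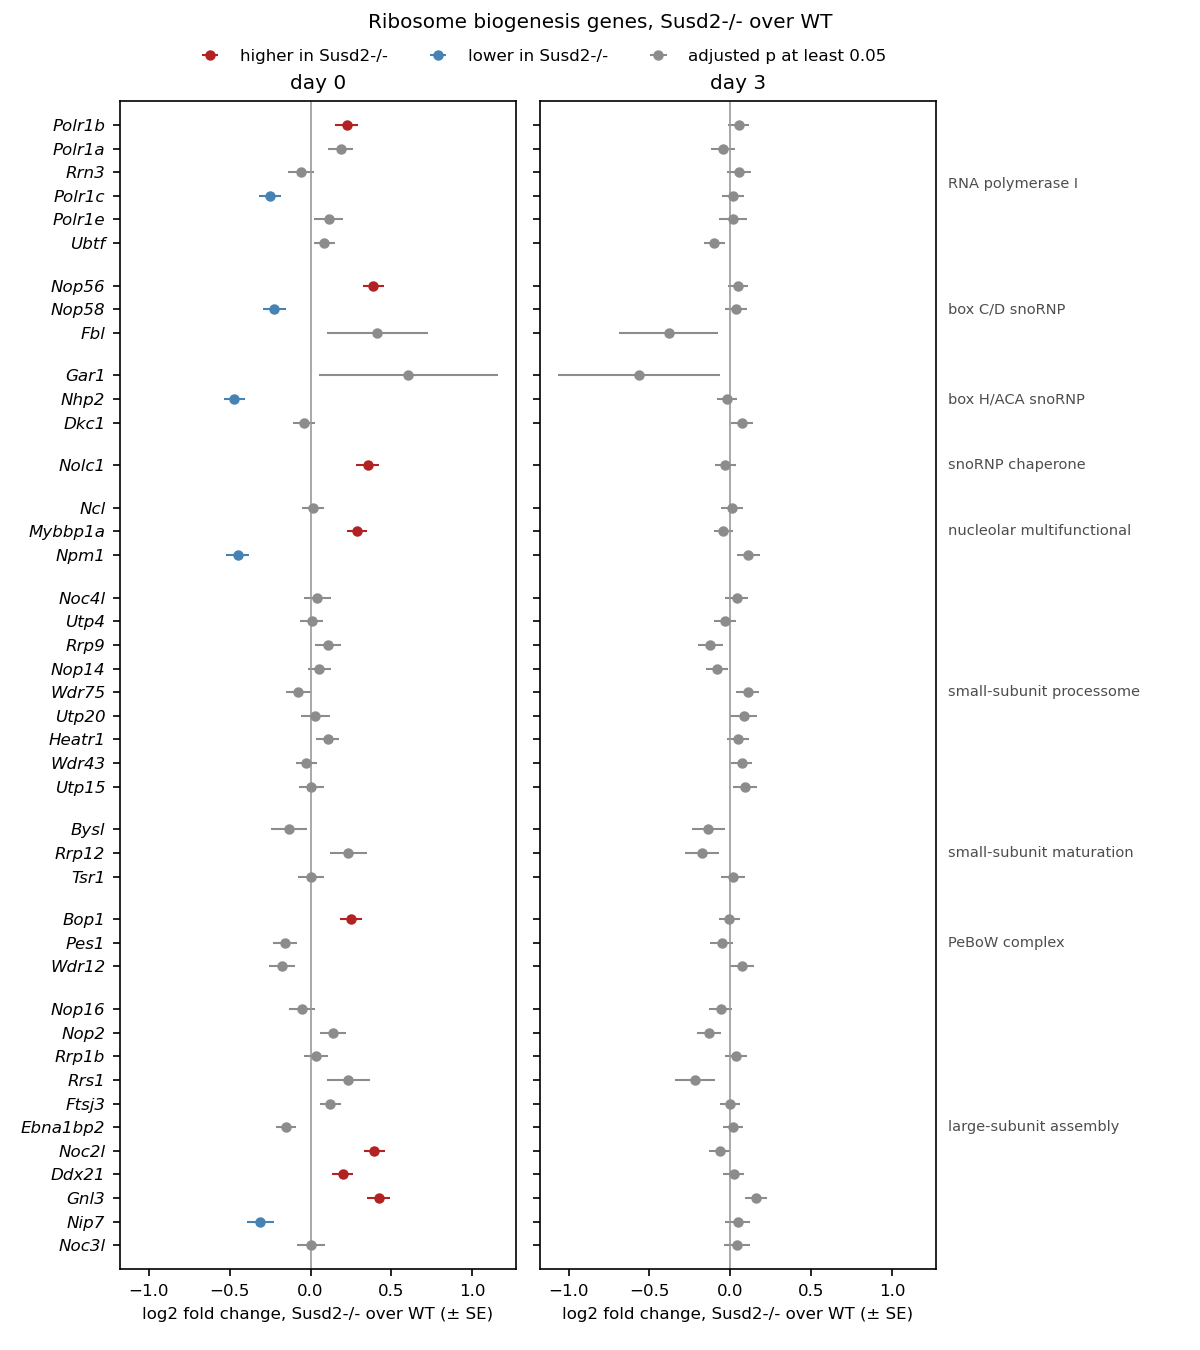
Log2 fold change of each of the 42 genes, Susd2-/- over WT, with its standard error, at day 0 (left) and at day 3 (right). Genes higher in Susd2-/- cells are red, those lower are blue and those that missed the threshold are grey. Day 0 has 8 red and 5 blue points, and all day 3 points are grey.

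The 8 genes that rose in Susd2-/- cells at day 0 came from 6 of the roles. Nop56, a core protein of the box C/D particle that guides methylation, had 243 and 231 CPM in Susd2-/- cells, against 185 and 177 CPM in WT cells. Nop56 was 0.39 ± 0.062 log2 units higher (edgeR adjusted p = 1.65e-04), with no overlap between the groups. Nolc1 had 132 and 122 CPM in Susd2-/- cells, against 103 and 96.2 CPM in WT cells (0.35 ± 0.069, adjusted p = 0.0011). Noc2l, whose yeast counterpart acts in the export of large-subunit precursors, had 174 and 164 CPM in Susd2-/- cells, against 132 and 125 CPM in WT cells (0.39 ± 0.065, adjusted p = 2.28e-04). Samd11, whose exons overlap 20.9% of the exon bases of Noc2l on the other strand, had at most 0.354 CPM. Gnl3 (nucleostemin), a GTPase of the nucleolus, had 123 and 130 CPM in Susd2-/- cells, against 96 and 93.8 CPM in WT cells (0.42 ± 0.07, adjusted p = 2.56e-04). The Susd2-/- and WT libraries did not overlap for any of these genes. Mybbp1a was 0.29 higher, Bop1 0.25, Polr1b 0.22 and the RNA helicase gene Ddx21 0.20. With offsets for coding length and GC content in the fit, an alternative added after the data were seen, these 4 were not called (0.07, 0.09, 0.06 and 0.10). The offsets were fitted to the deviation of each library from the mean of its day. They thus also remove any genotype difference that follows coding length or GC content, and its part was not tested. Without the filter on low counts Polr1b and Ddx21 also missed the threshold (adjusted p = 0.114 and 0.106).

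The 5 genes that fell in Susd2-/- cells at day 0 were Nhp2, Npm1, Nip7, Polr1c and Nop58. Nhp2 had 57 and 53 CPM in Susd2-/- cells, against 76.6 and 75.8 CPM in WT cells, and fell by 0.47 ± 0.065 (edgeR adjusted p = 3.9e-05). Npm1 had 890 and 840 CPM in Susd2-/- cells, against 1190 and 1170 CPM in WT cells, and fell by 0.45 ± 0.072 (adjusted p = 1.97e-04). With the offsets its difference was -0.15 (adjusted p = 0.0761). Npm1 has processed pseudogenes, and the handling of reads with several alignments is not given in the sources used here. Nip7, a ribosome assembly factor, had 40.9 and 35.2 CPM in Susd2-/- cells, against 49.2 and 45.2 CPM in WT cells (-0.31, adjusted p = 0.0102), and missed with the offsets (-0.17, adjusted p = 0.11). Polr1c, a subunit shared by polymerases I and III, had a log2 difference of -0.25 and Nop58 one of -0.22. The groups did not overlap for any of the 5, and the share of all genes without overlap was not counted. Nop58 was not called with size factors from DESeq2's method in edgeR (adjusted p = 0.0562), with total counts (0.0518) or with DESeq2 (0.0564), and with the offsets its difference was -0.01 (adjusted p = 0.96).

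**Figure D3:**
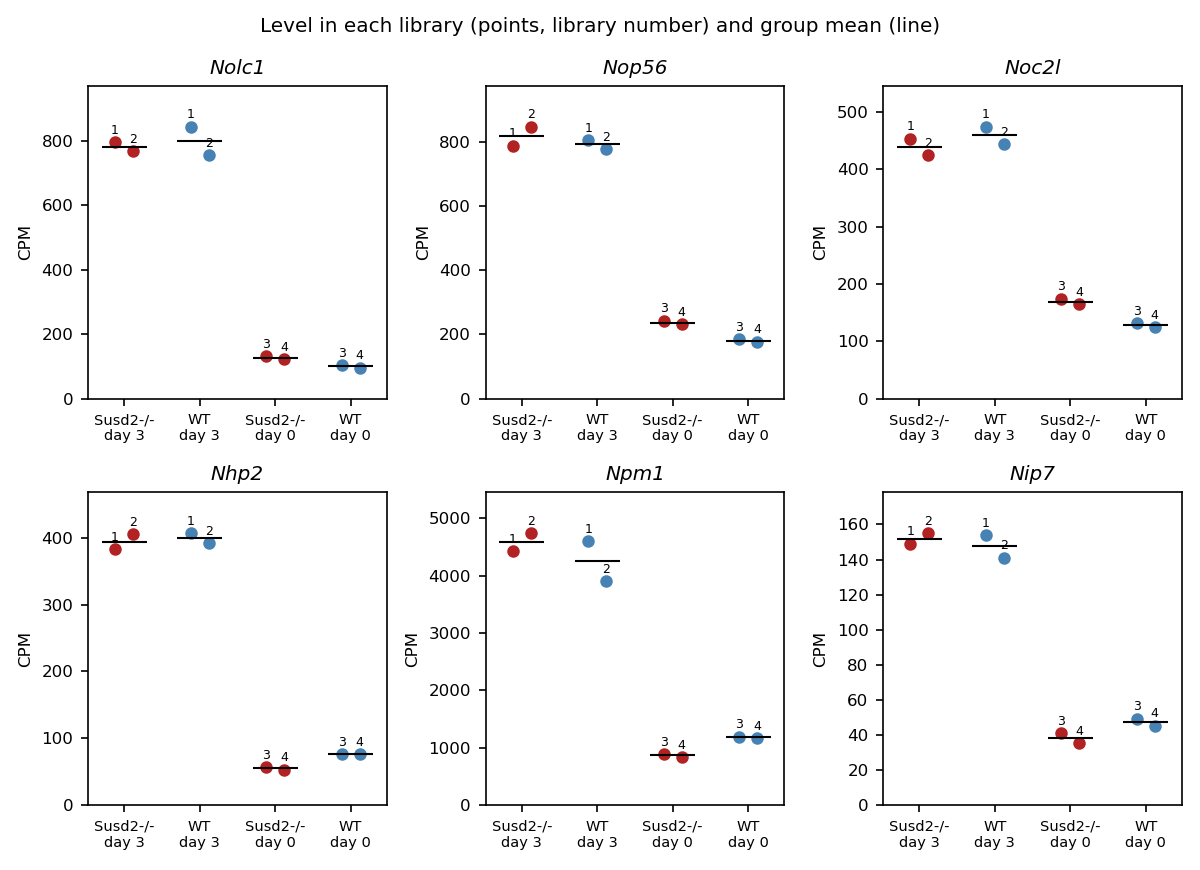
Level of 6 of the genes called at day 0 and in the interaction, in CPM, in each library (points, marked with the library number) with the group mean as a line. The upper row holds 3 genes higher and the lower row 3 genes lower in Susd2-/- cells at day 0, and the day 3 means of both genotypes lie close together.

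Coding length, GC content and markers of other cell types moved with the day 0 differences, and their part was not tested. The 8 genes higher in Susd2-/- cells had a median coding length of 2223 bases (1614 to 4032), the 5 lower ones 876 (459 to 1608) and the 29 others 2031 (543 to 8367). Across the 42 genes, which share libraries, the day 0 difference and coding length had a Spearman correlation of 0.378, and across 12425 genes one of 0.264. For the GC content of the coding sequence these were 0.356 and 0.17. With the offsets 7 genes were called at day 0 (4 higher and 3 lower), and 6 of the 13 were among them: Nop56, Nolc1, Noc2l, Gnl3, Nhp2 and Polr1c. The other was Pes1. Macrophage and monocyte markers were higher in Susd2-/- cells for 8 of 9 genes, by the sums given above. Of the plasma cell markers, Igha (-2.47) and Jchain (-2.24) were lower and Xbp1 (0.59) higher (log2). Among 5 B cell genes tested only Pax5 was called (2.44, at most 2.26 CPM in any library). B cell genes summed to 20.3 and 17.2 CPM in Susd2-/- cells, against 17.9 and 19.7 CPM in WT cells. Among 4 dendritic cell genes tested, Zbtb46 (1.20, at most 2.25 CPM) was higher and Itgax (-0.93) lower. Among 2 erythroid genes tested, Hbb-bs (-2.08, at most 1.64 CPM) was lower. CD4 and regulatory T cell markers summed to 44.8 and 47.3 CPM in Susd2-/- cells, against 17.5 and 18 CPM in WT cells, and nearly all of it was Ctla4, which activated CD8 T cells also express, with 43.6 and 45.7 CPM in Susd2-/- cells, against 16.5 and 16.6 CPM in WT cells. Cd4 had at most 0.41 CPM and Foxp3 at most 1.26 CPM in any library, and they were not called (adjusted p = 0.658 and 0.959). NK cell markers summed to 46.6 and 46.3 CPM in Susd2-/- cells, against 77.9 and 72 CPM in WT cells, and most of it was Klrk1, which CD8 T cells also express, with 36.8 and 36.8 CPM in Susd2-/- cells, against 63.1 and 59 CPM in WT cells. Ncr1, Klrb1c and Klra8 were not called (adjusted p = 0.559, 0.0852 and 0.441). CD8 T cell markers summed to 3530 and 3340 CPM in Susd2-/- cells, against 3910 and 3900 CPM in WT cells. Of the 6, 3 were lower: Cd8b1 (-0.27), Cd3d (-0.34) and Cd3g (-0.41). Cd8a, Cd3e and Trac were not called. At day 3 the macrophage genes Vcam1, C1qa, C1qc and Adgre1 were at 0 in every library.

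**Figure D4:**
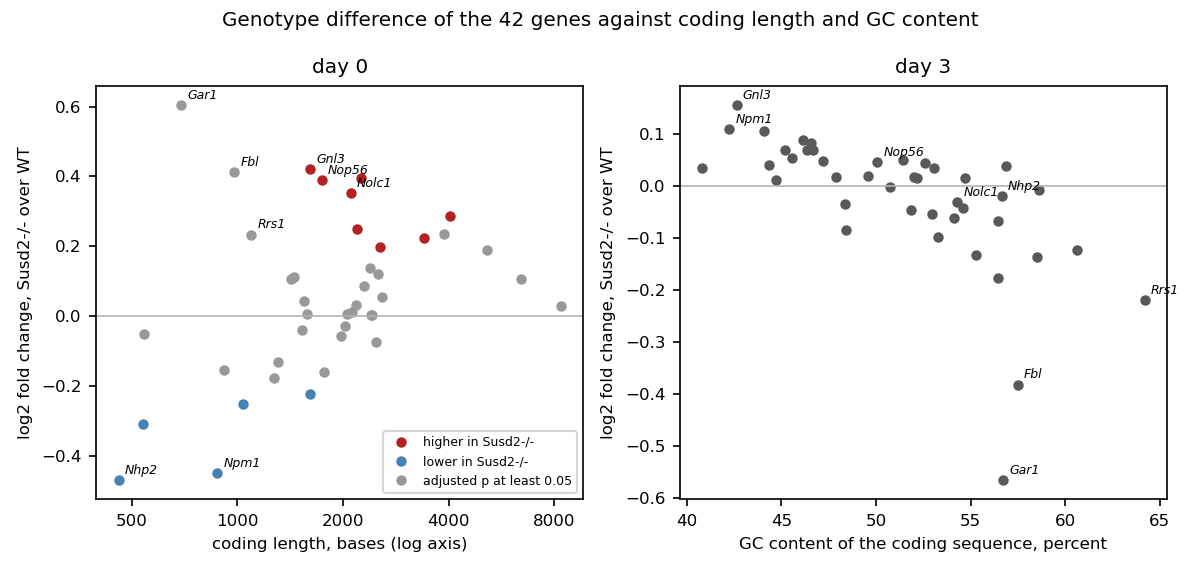
Log2 fold change of the 42 genes, Susd2-/- over WT, against coding length in bases on a log axis at day 0 (left) and against the GC content of the coding sequence in percent at day 3 (right). At day 0 the genes lower in Susd2-/- cells lie towards short lengths, and at day 3 Rrs1, Fbl and Gar1 lie lowest among the genes of high GC content.

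The number of day 0 calls differed between fits. With the 4 day 0 libraries alone, 21 were called (13 higher and 8 lower). Calls among all genes tested also rose in that fit, to 5627 of 14990, from 3792 of 16057 with all libraries. Without either Susd2-/- day 0 library 8 were called, without WT library 3 there were 6, and without WT library 4 there were 7, with the lone sample assumed to vary like the other groups. With the day 0 libraries of a genotype counted as 1 sample, 1 of the 13 was called (Nhp2, lower), but that fit has no day 0 spread of its own and takes it from the more variable day 3 libraries.

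At day 3, none of the 42 genes differed between Susd2-/- and WT cells, and of all genes tested 0.137% were called. edgeR gave 1 of the 42 at an unadjusted p below 0.05 (Gnl3, 0.16 ± 0.068, adjusted p = 0.583), against 1267 of all 16057 genes. DESeq2 called 0 of the 42. The log2 difference lay within 0.2 for 39 of the 42, and their median was 0.02. For Nhp2 the 95% interval of the day 3 difference was -0.15 to 0.11, and for Npm1 -0.04 to 0.26. The exceptions beyond 0.2 were Fbl (-0.38), Gar1 (-0.57) and Rrs1 (-0.22), which did not pass.

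Fbl, Gar1 and Rrs1 shared a low level in Susd2-/- day 3 library 2. Gar1, a box H/ACA core protein, had 196 and 71.6 CPM in Susd2-/- cells at day 3, against 212 and 181 CPM in WT cells. At day 0 it had 40.5 and 40.3 CPM in Susd2-/- cells, against 24.4 and 28.8 CPM in WT cells. Fbl (fibrillarin, the methyltransferase of the box C/D particle) had 504 and 274 CPM in Susd2-/- cells at day 3, against 528 and 485 CPM in WT cells. At day 0 it had 185 and 176 CPM in Susd2-/- cells, against 130 and 141 CPM in WT cells. Rrs1, a large-subunit assembly factor, had 190 and 140 CPM in Susd2-/- cells at day 3, against 201 and 183 CPM in WT cells. Susd2-/- library 2 was thus lowest of the day 3 libraries in all 3 genes, and at day 0 the Susd2-/- libraries of Gar1 and Fbl lay above both WT libraries. Between library 2 and library 1 the log2 difference was -1.45 for Gar1 and -0.88 for Fbl, at percentiles 0.101 and 0.389 of 5920 genes of at least 5 in average log2 CPM.

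**Figure D5:**
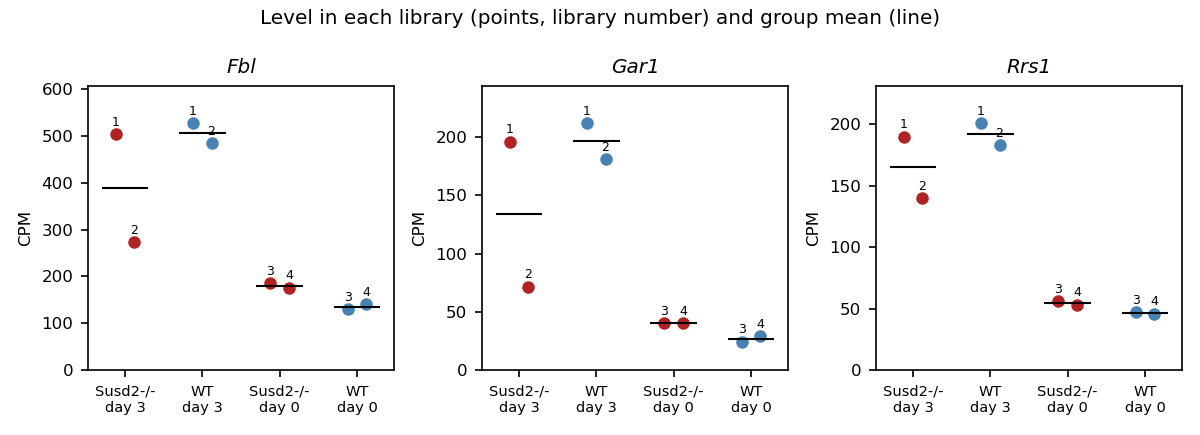
Level of Fbl, Gar1 and Rrs1 in CPM in each library (points, marked with the library number), with the group mean as a line. Susd2-/- library 2 of day 3 lies below library 1 in all 3 genes, and Gar1 differs most.

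With all libraries, Gar1 differed at day 0 by 0.60 ± 0.55 (edgeR adjusted p = 0.528) and Fbl by 0.41 ± 0.31 (adjusted p = 0.444). Without Susd2-/- day 3 library 2, the day 0 differences were 0.595 ± 0.089 for Gar1 (adjusted p = 5.1e-05) and 0.40 ± 0.063 for Fbl (adjusted p = 7.85e-05), and the day 3 differences were -0.006 for Gar1 and -0.005 for Fbl. In that fit Rrs1 was called at day 0 too (0.22, adjusted p = 0.0266). Across the 42 genes, the day 3 difference and the GC content of the coding sequence had a Spearman correlation of -0.773, and across 12425 genes one of -0.250. The log2 difference between the Susd2-/- day 3 libraries, 2 minus 1, had -0.563 and -0.207. These are descriptions over genes of the same libraries. Without Susd2-/- day 3 library 1, Gar1, Fbl and Rrs1 were called lower at day 3, which restates the values of library 2, then the lone sample of its group, against a spread taken from the other groups.

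The calls of Fbl and Gar1 over the days in Susd2-/- cells also moved with the libraries used. With all libraries Fbl rose by 1.11 ± 0.31 (edgeR adjusted p = 0.029) and Gar1 by 1.72 ± 0.53 (adjusted p = 0.0387). In a fit of the 4 Susd2-/- libraries alone the adjusted p was 0.133 and 0.16. Without library 2 of day 3, both were called (Fbl adjusted p = 6.46e-14, Gar1 adjusted p = 1.03e-14), and the rise of Gar1 was 2.29.

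The rise over the days differed between genotypes for 7 of the 42 genes (16.7%), against 13.5% of all genes tested. The rise was larger in Susd2-/- cells for 3 genes (6.6% of all genes) and smaller for 4 (6.88% of all genes). Larger rises were those of Npm1 (0.56 ± 0.10 log2 units), Nhp2 (0.45 ± 0.09) and Nip7 (0.35 ± 0.11), which were lower at day 0. Smaller rises were those of Noc2l (-0.46 ± 0.091), Nolc1 (-0.38 ± 0.096), Nop56 (-0.34 ± 0.087) and Mybbp1a (-0.33 ± 0.087), which were higher at day 0. All 7 are among the 13 called at day 0 and share those libraries, so the counts are not independent. With coding length and GC offsets 4 were called (1 larger and 3 smaller rises). Of the 7, Nhp2, Noc2l and Nop56 were among them, while Npm1 was 0.20 (adjusted p = 0.153), Nip7 0.17 (adjusted p = 0.326), Nolc1 -0.27 (adjusted p = 0.0709) and Mybbp1a -0.10 (adjusted p = 0.484). Nip7 also missed with DESeq2's size factors in edgeR (adjusted p = 0.0543) and with DESeq2 (0.0597), and Nop56 and Mybbp1a missed without the filter on low counts (adjusted p = 0.0956 and 0.107). Without 1 day 0 library the count was 4 (Susd2-/- library 3), 6 (Susd2-/- library 4), 3 (WT library 3) and 3 (WT library 4), and without Susd2-/- day 3 library 1 it was 13.

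Of the other 98 pathway genes, 12 were higher and 16 lower in Susd2-/- cells at day 0 (12.2% and 16.3%, near the 11.5% and 12.1% of all genes tested), and with scaling by total counts 17 and 15. The lower ones included Nop10, the partner of Nhp2 in the box H/ACA particle, with 52.5 and 46.4 CPM in Susd2-/- cells, against 67.6 and 76.5 CPM in WT cells (-0.54, edgeR adjusted p = 1.44e-04). They also included Ddx52, an RNA helicase (-0.40), and Imp3 (-0.38) and Utp14a (-0.36), both of the processome. Among the higher ones were Nat10, an RNA acetyltransferase, with 101 and 101 CPM in Susd2-/- cells, against 76.7 and 76.1 CPM in WT cells (0.40, adjusted p = 0.00176), and the helicase genes Dhx33 (0.37), Ddx47 (0.34) and Ddx24 (0.34). At day 3, 0 of the 98 passed and 7 had an unadjusted p below 0.05 in edgeR, against 1267 of all 16057 genes. In the interaction 11 were higher and 8 lower (11.2% and 8.16%, against 6.6% and 6.88% of all genes tested).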

How the data were processed

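The deposited table held raw counts per gene, whole numbers with no normalization, in 15 columns, each 1 sequencing lane of a library, per the file header and the values. Poly(A) RNA was sequenced after a stranded preparation, per the labels' protocols. The build was GRCm38, and fastp 0.23.2, Subread 2.0.1, SAMtools 1.10 and HISAT2 2.1.0 are listed, per the submitters' processing notes. No source used here gives the annotation release, the strand setting or the handling of multiply aligned reads.

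Lanes were summed into 8 libraries (7 of 2 lanes, WT day 3 library 2 of 1 lane), and the library was the replicate. Whether the libraries of a group are from separate mice is not in the labels. The p-values therefore reflect the spread between these libraries alone, and it may be technical. Genes were kept by edgeR's filterByExpr, and all groups were fitted together with TMM and the robust quasi-likelihood F test (edgeR 4.0.16, R 4.3.3), with Benjamini-Hochberg adjustment over 16057 genes within a comparison. An adjusted p below 0.05 was a call, and every adjusted p is edgeR's unless another tool is named. CPM was computed from the counts. The fit was tested on simulated day 0 differences in 200 of 16057 genes, with 1 spread per gene for both days. It called 59 of 100 genes changed by 1 log2 unit, 50 of 100 changed by 0.5 and 7 of 15857 unchanged genes. A first criterion over all changed genes was not met, and the one then used, on changes of 1 log2 unit above 8 CPM (52 of 53 called), was chosen after that result was seen.

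Coding length, GC content and overlaps came from GENCODE M21 (GRCm38). Library numbers did not pair the samples (correlation of deviations 0.005 at day 0 and -0.076 at day 3). The 42 genes, the roles, the 98 other genes and the marker lists were chosen with earlier results of these data known. Genes named are those called between genotypes or in the interaction (up to 6 each way by adjusted p, the rest as the count), the 4 largest and 2 smallest day folds, 1 gene per role and up to 4 other pathway genes each way at day 0. Fbl, Gar1 and Rrs1 were singled out after their values were seen. Alternatives were other scalings, no filter, DESeq2 1.42.0, left-out libraries, a replicate block, fits of part of the libraries, and coding length and GC offsets.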

Additional observations from a re-analysis of the deposited data

Results flagged for a closer look

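For 7 of the 42 genes the test of the interaction found that the rise over the days differed between the genotypes. The log2 change of Susd2-/- minus WT was 0.56 for Npm1, 0.45 for Nhp2, 0.35 for Nip7, -0.33 for Mybbp1a, -0.34 for Nop56, -0.38 for Nolc1 and -0.46 for Noc2l. With coding length and GC offsets Npm1 was 0.20 (adjusted p = 0.153) and Nip7, Nolc1 and Mybbp1a also missed the threshold, and Nip7 missed it with DESeq2 as well. The day 0 libraries enter both this test and the day 0 comparison. Groups of 2 libraries were not examined for outlying samples.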

How the results depend on the processing

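The 42 rises over the days numbered 40 to 42 in Susd2-/- cells and 42 in WT cells under every alternative run. Scaling by total counts alone moved the median log2 change of all genes to -0.32 in both genotypes. The count at day 0 (13) moved to 7 with coding length and GC offsets, 21 with the 4 libraries of the day, 1 with the day 0 libraries of a genotype counted as 1, and 6 to 16 without 1 library at a time. The count in the interaction (7) moved to 4 with the offsets and 3 to 13 without 1 library at a time. The count at day 3 (0) was 0 to 3 without 1 library at a time, the 3 being without Susd2-/- day 3 library 1. A fit with the replicate block, the library number within a day, called 13 genes at day 0, 0 at day 3 and 8 in the interaction, and since the numbers do not pair the samples it says nothing of a weaker effect. The day 3 difference of Rrp12 ran from -0.306 to 0.034 without 1 library at a time and changed sign without WT day 3 library 1. Of the values of named genes under each alternative, 614 kept direction and side of the threshold, 88 lost a call and 30 gained one. Of all genes tested, 3792 of 16057 were called at day 0 in the first fit, and 3213 of 16057 with the offsets. With the 4 libraries of the day 5627 of 14990 were called. In the interaction 2164 of 16057 were called, and 1555 of 16057 with the offsets. The share of all genes called in the other alternatives is not given beside these counts, and the causes were not tested. With 2 libraries a group and a wider spread at day 3, small differences can be missed.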
